A study of Homo sapiens and Mus musculus with 22 samples.

Results

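The HOX genes are homeobox transcription factor genes that lie in 4 clusters, HOXA to HOXD, and were taken here by symbol. Every symbol made of HOX, a cluster letter and a position number was included, in capitals in the human tables and with a capital H only in the mouse table. There were 39 members among 25435 genes in the table of H69 and H69M, 39 among 20113 in the table of H69EZ and 39 among 24047 in the mouse table. All 39 were found in each table, with 11 members in the A cluster, 10 in B, 9 in C and 9 in D. Position numbers 1 to 3 are called anterior below, 4 to 8 central and 9 to 13 posterior.

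HOX proteins specify position along the body axis, and within a cluster the genes are used in their physical order, the low numbers in anterior and early tissue and the high numbers in posterior, late tissue. Genes of the same number in different clusters are paralogues, copies that descend from a common ancestral gene. Silent HOX clusters are textbook targets of Polycomb repressive complex 2 (PRC2), whose catalytic subunit EZH2 places the repressive histone mark H3K27me3, while the trithorax group protein KMT2A (MLL1) keeps active HOX genes on.

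RNA was sequenced from small cell lung cancer (SCLC) lines after exome capture, in 22 libraries of 8 groups, to compare cells high for MHC class I, the surface complex that shows peptides to T cells, with related cells low for it. H69M, a derivative of the human line H69, carries the label MHC class I high (n = 3), and its parent H69 low or negative (n = 3). H69M was also sorted into a PD-L1 high fraction, by its label high for MHC class I (n = 3), and a PD-L1 low or negative fraction, MHC class I low or negative (n = 3), called PD-L1 low below. PD-L1 is an immune checkpoint ligand. H69EZ came from H69 cells that were given an inhibitor of EZH2 for 6 days, grown on without it and selected for adherence. Both of its groups share this history, and they were sorted for surface HLA-ABC into an HLA high fraction (n = 2) and a low or negative fraction (n = 2), called HLA low below. RPP-A is a mouse line labelled MHC class I high that was selected from RPP for adherent growth (n = 3), and RPP, the line it came from, is labelled low or negative (n = 3). The sources used here give neither the drug dose nor the alleles of the mouse line, nor whether replicates were separate cultures. The p-values therefore speak of the spread between libraries alone, which may be technical. H69M, H69EZ and RPP-A are each 1 derived line.

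Total counts per library were 12814594 to 26834561 in the table of H69 and H69M, 40568796 to 52458228 in the H69EZ table and 10817795 to 19973785 in the mouse table. Levels are CPM, read counts per unit of library size after TMM scaling, group values are means ± SD, and each log2 fold change carries its SE. A gene was called where edgeR's quasi-likelihood test gave a Benjamini-Hochberg adjusted p below 0.05 over all genes of the table, and every adjusted p below is of that kind. Most genes were called in every comparison, so the share of all tested genes called stands beside each count of HOX genes. In these bulk libraries fewer cells that use a gene and less RNA per cell cannot be told apart. Marker genes of other states moved with all the comparisons. The summed level of 12 fibroblast and stromal markers was 3100 to 3350 CPM in H69M against 678 to 709 CPM in H69, and 11600 to 11900 CPM in the PD-L1 high against 638 to 738 CPM in the PD-L1 low fraction. It was 16900 to 18200 CPM in the HLA high against 402 to 403 CPM in the HLA low fraction, and 27300 to 35900 CPM in RPP-A against 134 to 551 CPM in RPP. The 15 neuroendocrine markers that define most SCLC summed to 4580 to 4760 CPM in H69M against 4670 to 5040 CPM in H69, and to 2060 to 2100 CPM in the PD-L1 high against 6220 to 6510 CPM in the PD-L1 low fraction. They summed to 1150 to 1160 CPM in the HLA high against 3580 to 3650 CPM in the HLA low fraction, and to 187 to 230 CPM in RPP-A against 3550 to 4280 CPM in RPP. Of 10 leukocyte markers, CD3E, MS4A1 and TYROBP had no count in any of the sorted human fractions, nor had Cd3e, Ms4a1 and Tyrobp in the mouse libraries. The whole leukocyte list summed to 3.63 to 4.4 CPM in H69M against 3.4 to 4.22 CPM in H69, and to 7.93 to 9.34 CPM in the PD-L1 high against 1.81 to 2.57 CPM in the PD-L1 low fraction. It summed to 5.94 to 6.49 CPM in the HLA high against 4.43 to 5.2 CPM in the HLA low fraction, and to 32.7 to 36.8 CPM in RPP-A against 2.28 to 3.23 CPM in RPP. Of the 3 leukocyte markers that could be tested in the human lines 1 was higher and 1 lower in H69M, and 2 were higher in each sort. Mouse Cd14 rose to 32.2 ± 1.9 CPM in RPP-A against 0.307 ± 0.252 CPM in RPP (adjusted p = 9.85e-07). The part of these shifts in the HOX results was not tested.

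Bases before some HOX starts are shown, at the posterior end of the HOXA cluster and at the start shared by HOXC4 and HOXC5. They are the 250 bases before the start of each gene on the minus strand of chromosome 7 (HOXA) or the plus strand of chromosome 12 (HOXC4), from RefSeq on GRCh38.p14, 5′ to 3′, with CpG dinucleotides, the sites of DNA methylation, in capitals. This is another build than the one of the deposited counts.
HOXA13, chr7:27200092-27200341: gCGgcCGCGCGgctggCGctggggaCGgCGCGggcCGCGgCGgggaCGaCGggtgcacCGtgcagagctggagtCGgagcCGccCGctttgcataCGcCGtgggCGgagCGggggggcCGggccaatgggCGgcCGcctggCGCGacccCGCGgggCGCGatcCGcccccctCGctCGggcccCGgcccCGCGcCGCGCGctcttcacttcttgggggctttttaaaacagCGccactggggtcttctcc
HOXA11, chr7:27185233-27185482: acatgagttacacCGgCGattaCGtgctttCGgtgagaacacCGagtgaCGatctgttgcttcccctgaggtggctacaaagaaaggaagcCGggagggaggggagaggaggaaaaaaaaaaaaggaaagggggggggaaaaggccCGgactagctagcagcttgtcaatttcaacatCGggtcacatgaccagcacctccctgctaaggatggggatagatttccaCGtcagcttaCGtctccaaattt
HOXA10, chr7:27179862-27180111: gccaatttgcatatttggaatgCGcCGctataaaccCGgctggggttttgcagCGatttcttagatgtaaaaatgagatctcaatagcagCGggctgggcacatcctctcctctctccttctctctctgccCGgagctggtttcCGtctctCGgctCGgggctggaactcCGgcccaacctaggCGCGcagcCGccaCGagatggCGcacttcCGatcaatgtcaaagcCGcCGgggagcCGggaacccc
HOXC4, chr12:54016638-54016887: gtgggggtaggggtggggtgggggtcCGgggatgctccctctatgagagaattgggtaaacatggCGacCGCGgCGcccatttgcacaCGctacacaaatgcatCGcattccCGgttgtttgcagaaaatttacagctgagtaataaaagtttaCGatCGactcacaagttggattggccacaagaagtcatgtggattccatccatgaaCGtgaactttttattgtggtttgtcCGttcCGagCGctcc
The HOXA13 stretch held 40 CpGs, a number that 2.16% of 35116 RefSeq promoter windows of all genes reached. The HOXA10 stretch, before 1 of its annotated starts, held 19 CpGs, reached by 34.6% of windows, the HOXC4 stretch 14, reached by 44.8%, and the HOXA11 stretch 11, reached by 50.3%. HOXC5 has the same RefSeq start as HOXC4 and so the same window. Windows were at hand for 20 of the 39 members, but not for HOXC11, HOXC12 or HOXC13. The 27 HOX windows held 0 to 40 CpGs, with a median of 19 against 11 over all genes. The motif TGATTNAT, a joint site of PBX and HOX proteins read on both strands, was in none of the 4 stretches shown, in 2 of the 27 HOX windows and in 2.48% of all windows. CpG number and motif matches describe the sequence only.

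H69 cells already used most HOX genes. At a mean of 1 CPM or more were 29 of 39 members in H69M, 32 in its PD-L1 low fraction, 30 in its PD-L1 high fraction and 30 in H69. In the H69EZ table the number was 30 in the HLA high and 29 in the HLA low fraction. All 4 clusters were in use, and the B cluster held the largest share of HOX counts, 57.1% ± 0.808 in H69M against 44.6% ± 0.603 in H69. Per kilobase of coding sequence, HOXB2 was the highest member in H69, at 101 CPM per kilobase, followed by HOXA10 at 98.9 and HOXB3 at 88. HOXB9 was the highest member in each of the other 5 human groups, from 73.2 CPM per kilobase in the PD-L1 high fraction to 507 in the PD-L1 low fraction. The 9 members below 1 CPM in H69 were HOXA4, HOXA13, HOXB1, HOXB13, HOXC11, HOXC12, HOXC13, HOXD4 and HOXD13.

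**Figure D1:**
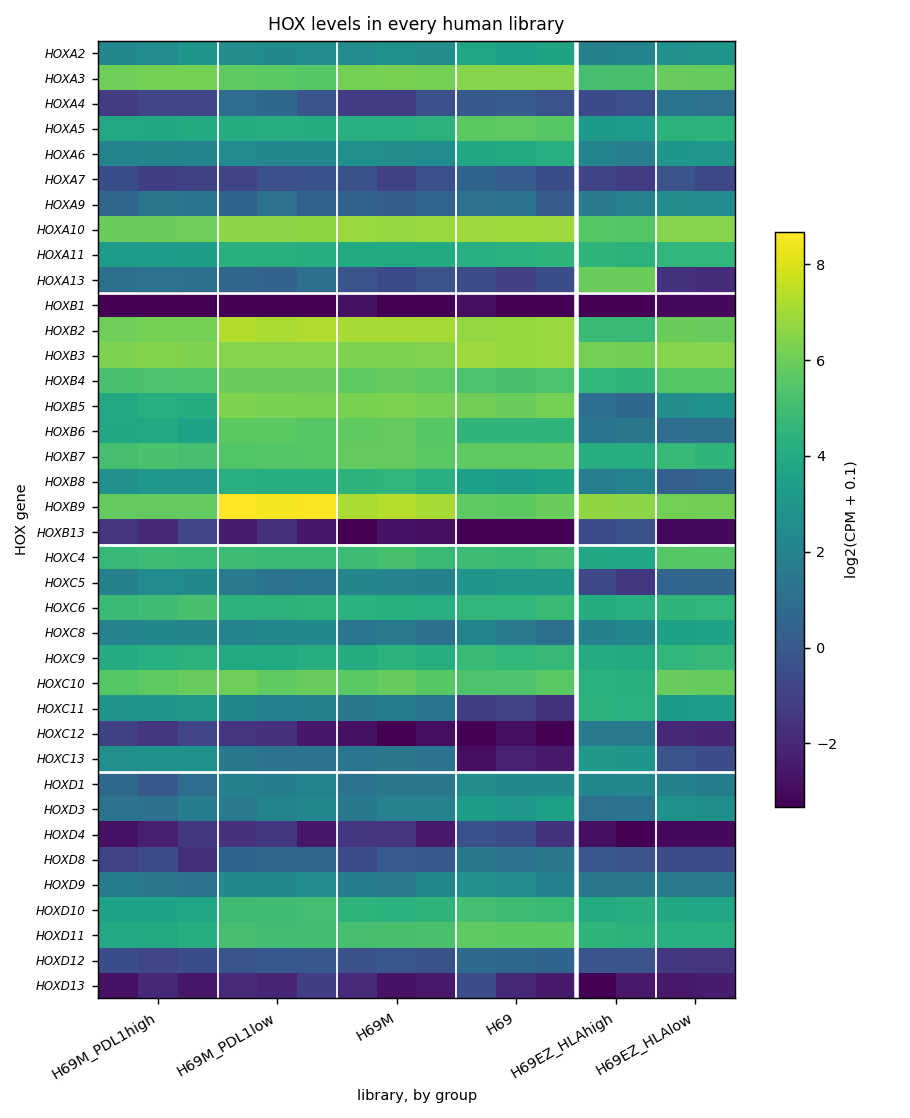
Level of each of 38 HOX genes (down the page, by cluster and position number) in each of the 16 human libraries (across, by group), as log2(CPM + 0.1) in colour. HOXA13 is high in the 2 HLA high libraries of H69EZ alone, at 59.8 and 63 CPM, and HOXB9 is at its highest in the PD-L1 low libraries, at 361 to 406 CPM.

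The widest differences between related human cells were found in the sorted fractions of H69EZ, the line with a past of EZH2 inhibition. HOXA13, the last gene of the HOXA cluster, which patterns limbs and the urogenital tract, was on in the HLA high fraction and nearly silent in the HLA low fraction. HOXC13, HOXC12 and HOXC11 at the same end of the HOXC cluster were higher too, while anterior and central members of the A, B and C clusters were mostly lower. Of 36 tested members, 12 were higher, 20 lower and 4 neither, where 81.3% of all tested genes were called, 41.1% higher and 40.2% lower. The median log2 fold change of the members was -0.55, against 0 over all genes.

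HOXA13 had 59.8 and 63 CPM in the HLA high libraries, from 2985 and 2419 reads, against 0.237 and 0.186 CPM in the HLA low libraries, from 12 and 8 reads. The groups lay far apart, with means of 61.4 ± 2.31 and 0.211 ± 0.0364 CPM (n = 2 each) and a log2 fold change of 8.15 ± 0.15, a 284-fold difference. Its adjusted p was too small for the software to write as a number. This is the largest change of any HOX gene in the human tables. Per kilobase of coding sequence HOXA13 ranked 3 of 39 members in the HLA high fraction, at 52.6 CPM per kilobase, and 34 of 39 in the HLA low fraction, at 0.181.

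Its neighbours in the cluster were not higher. HOXA11, which acts with HOXA13 in the limb, had 23 and 20.9 CPM in HLA high against 23.8 and 23.6 CPM in HLA low libraries, and its log2 fold change of -0.11 ± 0.08 did not pass the test (adjusted p = 0.207). Scaled by library totals it was called lower, at -0.26 (adjusted p = 0.00252), where the median of all genes stood at -0.15. HOXA10 had 44.7 and 43.5 CPM in HLA high against 90.2 and 89.6 CPM in HLA low libraries, a fall of 1.03 ± 0.07 on the log2 scale (adjusted p = 5.96e-48). EVX1, the homeobox gene on the other side of HOXA13, was named after its values were seen. It stood at 0.934 ± 0.0672 CPM in HLA high and 0.00988 ± 0.014 CPM in HLA low cells, and was called higher (adjusted p = 6.5e-21). EVX1 entered the test through the HLA high libraries, where it is higher, so this call lends no support.

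The end of the HOXC cluster was higher in HLA high cells too, by smaller amounts. HOXC13, a gene of hair and nail formation, had 8.93 and 7.66 CPM in HLA high against 0.731 and 0.603 CPM in HLA low libraries, a log2 fold change of 3.63 ± 0.17 (adjusted p = 6.36e-100). HOXC12 had 3.1 and 3 CPM in HLA high against 0.158 and 0.139 CPM in HLA low libraries, a change of 4.33 ± 0.29 (adjusted p = 5.67e-49). HOXC11 had 20.5 and 19.9 CPM in HLA high against 9.09 and 9.91 CPM in HLA low libraries, a change of 1.09 ± 0.09 (adjusted p = 4.27e-32). From HOXC10 on, the sign turned. HOXC10 had 20.1 and 19.6 CPM in HLA high against 58.2 and 57.1 CPM in HLA low libraries and fell by 1.54 ± 0.08 on the log2 scale (adjusted p = 3.81e-87). HOXC9, HOXC8, HOXC6, HOXC5 and HOXC4 were all called lower. HOXC4 had 14.4 and 13.6 CPM in HLA high against 45.4 and 46.5 CPM in HLA low libraries, a log2 fold change of -1.71 ± 0.08 (adjusted p = 4.93e-98). HOXC5 changed by -1.76 ± 0.28 (adjusted p = 7.1e-10), with 0.404 ± 0.165 CPM in HLA high and 1.42 ± 0.025 CPM in HLA low cells. HOXC5 shares 43.4% of its exon bases with other genes, HOXC4 and HOXC6 among them, in GENCODE v29, so its separate value is uncertain.

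By position over all clusters, 9 of 15 tested posterior members were higher and 4 lower, with a median log2 fold change of 0.30. Of 14 tested central members 2 were higher and 10 lower, with a median of -1.0, and of 7 tested anterior members 1 was higher and 6 lower, with a median of -0.82. Beside these counts stand the 41.1% of all tested genes called higher and the 40.2% called lower. HOXA13, HOXC12 and HOXB13 entered the test through the HLA high libraries, where they are high, so the posterior count and median describe the members that passed and lend no support. All 36 tested members had libraries that did not overlap between the fractions, as had 90.2% of all tested genes. The test in this table had 2 residual degrees of freedom, and edgeR pooled the spread wholly across genes. In the A cluster 1 of 11 members was higher and 8 lower. The largest fall there was in HOXA4, at 0.541 and 0.651 CPM in HLA high against 2.39 and 2.13 CPM in HLA low libraries, by 1.94 ± 0.23 on the log2 scale (adjusted p = 2.42e-16). HOXA5, HOXA6 and HOXA10 each fell by 1.03 to 1.16 on the log2 scale.

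The B and D clusters were mixed. In the B cluster HOXB5 had 2 and 1.51 CPM in HLA high against 5.97 and 7.05 CPM in HLA low libraries and fell by 1.86 ± 0.15 on the log2 scale (adjusted p = 2.29e-36), as HOXB2, HOXB3, HOXB4 and HOXB7 also fell. HOXB8 had 3.4 and 4.01 CPM in HLA high against 1.17 and 1.42 CPM in HLA low libraries, a log2 fold change of 1.52 ± 0.18 (adjusted p = 1.68e-17). HOXB9 had 101 and 96.4 CPM in HLA high against 70.1 and 66.7 CPM in HLA low libraries, a change of 0.53 ± 0.07 (adjusted p = 7.21e-15). HOXB13, the prostate-associated last gene of its cluster, had 55 reads over the HLA high and 2 over the HLA low libraries, a CPM ratio of 29.2 with a 95% exact binomial interval of 7.7 to 247. In the D cluster HOXD3 fell by 1.57 ± 0.14 (adjusted p = 7.21e-29), with 2.14 and 2.35 CPM in HLA high against 7.09 and 6.12 CPM in HLA low libraries, while HOXD1, HOXD10, HOXD11 and HOXD12 were called higher. HOXD12 stood at 0.768 ± 0.0178 CPM in HLA high and 0.266 ± 0.0152 CPM in HLA low cells. The calls of HOXB6, HOXD1, HOXD10 and HOXD11 were lost when 1 library was left out, with adjusted p up to 0.26, 0.0707, 0.0729 and 0.191.

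**Figure D2:**
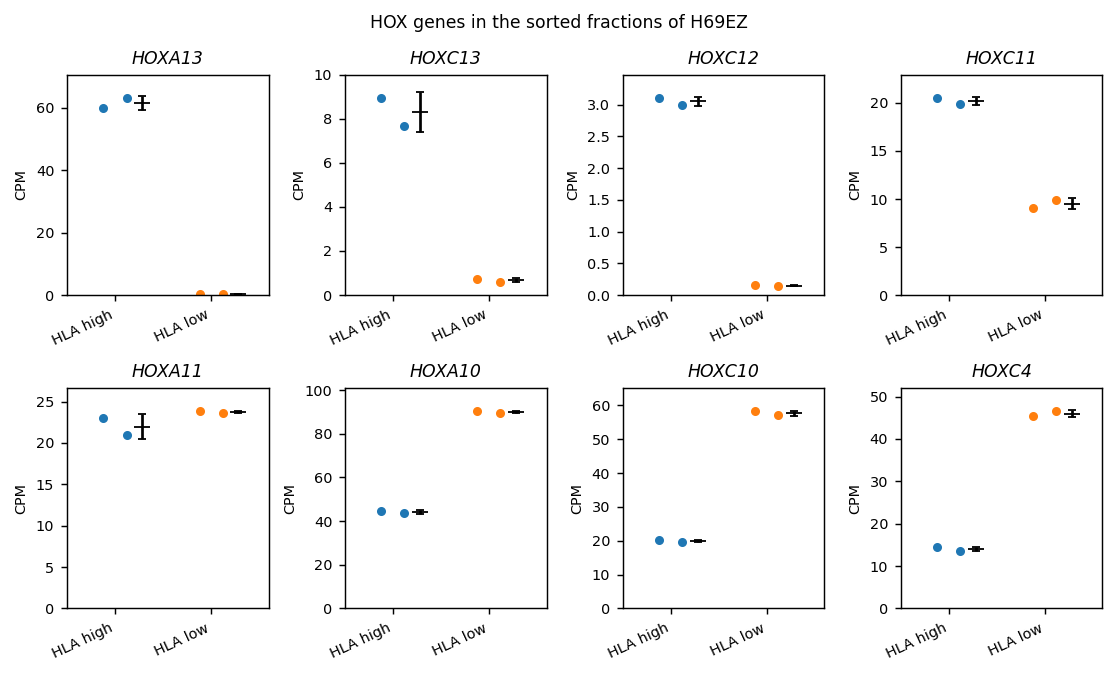
Level in CPM (linear axis from 0) of 8 HOX genes in the HLA high (left) and HLA low (right) libraries of H69EZ, each point 1 library, with the mean and SD as a bar beside them (n = 2 each). HOXA13, HOXC13, HOXC12 and HOXC11 are higher in both HLA high libraries, HOXA10, HOXC10 and HOXC4 are lower, and HOXA11 lies at 20.9 to 23.8 CPM in all 4.

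H69M differed from its parent H69 most at the posterior end of HOXC and in HOXB9, which were higher, and in the HOXD and central HOXA genes, which were lower. Of 34 tested members, 10 were higher, 20 lower and 4 neither, where 72.5% of all tested genes were called, 35.9% higher and 36.6% lower. The median log2 fold change was -0.37 over the members and -0.01 over all genes. Groups did not overlap for 26 of the 34, against 72.9% of all genes. The A cluster had 1 higher and 9 lower of 11 tested, the B cluster 6 higher and 1 lower of 8, the C cluster 3 higher and 3 lower of 8, and the D cluster 7 lower of 7.

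HOXC13 had 2.47, 2.59 and 2.26 CPM in the H69M libraries against 0.0402, 0.113 and 0.0807 CPM in the H69 libraries. It was low in all H69 libraries and above 2 CPM in all of H69M, a log2 fold change of 4.85 ± 0.32 (adjusted p = 4.98e-11). HOXC11 had 2.74, 3.18 and 2.45 CPM in H69M against 0.362, 0.453 and 0.242 CPM in H69, a change of 2.86 ± 0.25 (adjusted p = 3.31e-09). HOTAIR, a noncoding RNA read from the opposite strand of the same stretch of the HOXC cluster, stood at 2.63 ± 0.264 CPM in H69M and 0.222 ± 0.0544 CPM in H69, a change of 3.54 ± 0.27 (adjusted p = 4.12e-10). HOXC13, HOXC11 and HOTAIR entered the test through the H69M populations and not through H69. Their calls against H69 thus describe what those cells hold and lend no support. HOXC12, which lies between HOXC11 and HOXC13, stayed at 0 to 0.0449 CPM in both groups. HOXA13 stood at 0.679 ± 0.116 CPM in H69M and 0.529 ± 0.137 CPM in H69 and was not called (0.44 ± 0.31 on the log2 scale, adjusted p = 0.213).

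HOXB9, a posterior gene of the B cluster, had 142, 161 and 138 CPM in H69M against 51.2, 50.3 and 60.7 CPM in H69, with no overlap and a log2 fold change of 1.45 ± 0.07 (adjusted p = 3.23e-13). HOXB6 had 54, 55.3 and 47.3 CPM in H69M against 22.5, 22.8 and 23.2 CPM in H69, a change of 1.19 ± 0.08 (adjusted p = 1.81e-11). HOXB8 was higher by 1.00 ± 0.10 and HOXB4 by 0.48 ± 0.06. HOXB3 was the one B member called lower, by 0.49 ± 0.05 on the log2 scale.

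The falls were led by HOXD8, HOXD3, HOXA6 and HOXA5. HOXA5, a gene of lung development, had 18, 18.2 and 20.6 CPM in H69M against 50.5, 51.6 and 47 CPM in H69, and fell by 1.39 ± 0.07 on the log2 scale (adjusted p = 3.95e-13). HOXA6 had 6.43, 5.97 and 5.58 CPM in H69M against 14.4, 15.4 and 18.2 CPM in H69 and fell by 1.40 ± 0.10 (adjusted p = 2.42e-10). HOXD3 stood at 3.48 ± 0.642 CPM in H69M and 9.88 ± 1.4 CPM in H69, a change of -1.48 ± 0.16, and HOXD8 at 0.832 ± 0.218 CPM in H69M and 2.51 ± 0.261 CPM in H69, a change of -1.58 ± 0.22. HOXD3 shares 62.2% of its exon bases with another gene in GENCODE v29, so its value is uncertain. The paralogues HOXA3 and HOXB3, by contrast, fell by 0.31 ± 0.06 and 0.49 ± 0.05. HOXC5 and HOXD1 each fell by 1.10. The calls of HOXA4, HOXA7, HOXA9, HOXB5, HOXC10 and HOXD9 were lost without 1 library, with adjusted p up to 0.0667, 0.125, 0.199, 0.183, 0.184 and 0.0983.

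**Figure D3:**
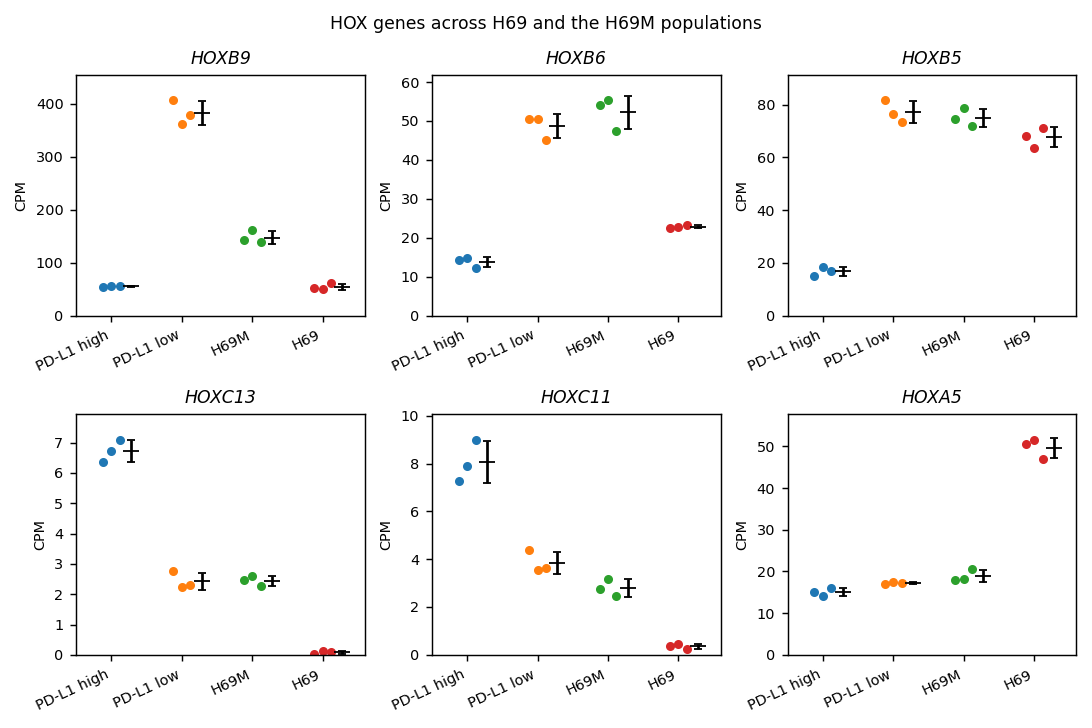
Level in CPM (linear axes from 0) of 6 HOX genes in the PD-L1 high and PD-L1 low fractions of H69M, in unsorted H69M and in H69, each point 1 library and each bar the mean ± SD (n = 3 each). HOXB9 peaks in the PD-L1 low fraction at 382 ± 22.4 CPM and is at 55.1 ± 0.433 CPM in the PD-L1 high fraction, while HOXC13 and HOXC11 are highest in the PD-L1 high fraction.

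Within H69M, the PD-L1 high fraction had less of nearly the whole HOXB and HOXD clusters than the PD-L1 low fraction, and more of HOXC13, HOXC11, HOXC5 and HOXC6. Of 34 tested members 5 were higher, 18 lower and 11 neither, where 78.3% of all tested genes were called, 39% higher and 39.4% lower. The members' median log2 fold change was -0.40, against 0 over all genes. By cluster, 7 of 8 tested B members and 6 of 7 tested D members were lower and none higher, 4 of 8 tested C members were higher and none lower, and the A cluster had 1 higher and 5 lower of 11. Groups did not overlap for 26 members, against 80.1% of all genes. The summed HOX level was 698 ± 36.3 CPM in the PD-L1 high and 1310 ± 40.4 CPM in the PD-L1 low fraction, and HOXB9 and HOXB13 together, nearly all of it HOXB9, made up 7.95% ± 0.352 of it in PD-L1 high and 29.3% ± 0.802 in PD-L1 low cells.

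HOXB9 had 54.6, 55.3 and 55.4 CPM in the PD-L1 high against 406, 361 and 378 CPM in the PD-L1 low libraries. This was the largest change of a member in this sort, a log2 fold change of -2.79 ± 0.07 (adjusted p = 5.91e-18), or 6.93-fold. HOXB5 had 15.1, 18.4 and 16.9 CPM in PD-L1 high against 81.6, 76.3 and 73.5 CPM in PD-L1 low libraries and fell by 2.21 ± 0.08 on the log2 scale (adjusted p = 4.47e-16). HOXB6 had 14.2, 14.8 and 12.3 CPM in PD-L1 high against 50.4, 50.5 and 45.2 CPM in PD-L1 low libraries and fell by 1.81 ± 0.08 (adjusted p = 4.41e-14). HOXB3 stood at 83.7 ± 3.49 CPM in PD-L1 high and 90.5 ± 0.321 CPM in PD-L1 low cells and did not pass the test (-0.11 ± 0.05, adjusted p = 0.0557), but was called lower without 1 library (-0.15, adjusted p = 0.0301). Among the D genes, HOXD8 changed by -1.71 ± 0.31 and HOXD1 by -1.32 ± 0.20, and HOXA4 by -1.76 ± 0.34. HAGLR, a noncoding RNA of the HOXD cluster, stood at 24 ± 1.45 CPM in PD-L1 high and 74.4 ± 3.68 CPM in PD-L1 low cells, a change of -1.63 ± 0.06 (adjusted p = 2.55e-15). HOXD1 shares 1147 of its 1975 exon bases with genes on the opposite strand in GENCODE v29, HAGLR among them. With no strand stated for the counting, the separate value of HOXD1 is uncertain. The call of HOXA5 (-0.20 ± 0.08) was lost without 1 library, at adjusted p up to 0.136, and that of HOXD3 (-0.60 ± 0.21) at up to 0.0802.

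HOXC13 had 6.36, 6.73 and 7.1 CPM in the PD-L1 high against 2.75, 2.23 and 2.31 CPM in the PD-L1 low libraries, a log2 fold change of 1.45 ± 0.14 (adjusted p = 8.27e-09). HOXC11 had 7.29, 7.9 and 9 CPM in PD-L1 high against 4.39, 3.53 and 3.62 CPM in PD-L1 low libraries, a change of 1.05 ± 0.14 (adjusted p = 7.1e-07). HOXC13-AS, read from the strand opposite HOXC13, moved with it, at 1.53 ± 0.343 CPM in PD-L1 high and 0.0987 ± 0.0692 CPM in PD-L1 low cells (adjusted p = 2.5e-07). HOXC13-AS entered the test through the PD-L1 high libraries, where it is higher, so its call lends no support. Because the counting is not stated to use strand, reads of HOXC13 and HOXC13-AS cannot be told apart where they overlap. HOXC5 rose by 0.84 ± 0.17, HOXC6 by 0.53 ± 0.09 and HOXA3 by 0.50 ± 0.06. HOXC10, not called here, was called lower under library totals (-0.32, adjusted p = 0.0078), with no filter on low counts (-0.23, adjusted p = 0.00634) and without PD-L1 high replicate 3 (-0.32, adjusted p = 0.0134) or PD-L1 low replicate 2 (-0.26, adjusted p = 0.0309). HOXC9, also not called, was called higher by DESeq2's test (0.24, adjusted p = 0.0405) and without PD-L1 high replicate 1 (0.26, adjusted p = 0.0282) or PD-L1 low replicate 3 (0.25, adjusted p = 0.0445). HOXA13 stood at 2.08 ± 0.052 CPM in PD-L1 high and 1.58 ± 0.398 CPM in PD-L1 low cells and did not pass the test (0.44 ± 0.21, adjusted p = 0.062), but was called higher without PD-L1 low replicate 3 (0.61, adjusted p = 0.0201).

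Both fractions were also set against H69, and these 2 comparisons share the H69 libraries with each other and with H69M against H69, and their fractions with the sort. In the PD-L1 high fraction 5 members were higher and 24 lower than in H69, where 77.6% of all tested genes were called, 38.1% higher and 39.5% lower, and 28 members lay apart, against 77.9% of all genes. In the PD-L1 low fraction 12 were higher and 16 lower than in H69, where 75.9% of all tested genes were called, 39% higher and 36.9% lower, and 26 members lay apart, against 75.5% of all genes. The D cluster had 7 of 7 tested members lower in PD-L1 high and 5 of 7 lower in PD-L1 low cells. HOXC13 was 79.3-fold higher than in H69 in PD-L1 high cells (log2 fold change 6.31 ± 0.27) and 29-fold higher in PD-L1 low cells (4.86 ± 0.33). It had 1, 3 and 1 reads in H69 and entered the test through the H69M populations. HOXA13 differed from H69 by 2.03 ± 0.26 in PD-L1 high and by 1.59 ± 0.27 in PD-L1 low cells, both called (adjusted p = 5.23e-07 and 2.74e-05), at means no higher than 2.08 CPM. With 14, 10 and 8 reads in H69, HOXA13 too entered the test through the H69M populations, so these calls lend no support. Unsorted H69M stood below both of its fractions, at 0.679 ± 0.116 CPM. HOXC8 averaged 4.23 CPM in PD-L1 high and 4.61 CPM in PD-L1 low cells, against 2.49 CPM in unsorted H69M. Unsorted H69M thus did not lie between its fractions for these genes, nor for some others. HOXA10 stood at 110 ± 2.6 CPM in unsorted H69M, 62.8 ± 1.19 CPM in PD-L1 high and 96.8 ± 1.59 CPM in PD-L1 low cells. HOXC6 stood at 19.4 ± 0.493 CPM in unsorted H69M, 31.3 ± 4.75 CPM in PD-L1 high and 21.5 ± 0.352 CPM in PD-L1 low cells. The cause was not tested. HOXC12 and HOXB13, too low to test, had 20 and 15 reads in PD-L1 high cells, 12 and 8 in PD-L1 low cells and 1 and 0 in H69. HOXB9 differed from H69 by 0.04 ± 0.07 in PD-L1 high cells (adjusted p = 0.642) and by 2.83 ± 0.07 in PD-L1 low cells (adjusted p = 2.13e-17). The lowest levels relative to H69 were those of HOXD8, HOXB5, HOXD3, HOXA6, HOXD1 and HOXA5 in PD-L1 high cells, at log2 fold changes of -2.52 to -1.73. In PD-L1 low cells they were those of HOXC5, HOXA6, HOXA5, HOXD3, HOXA2 and HOXD12, at -1.70 to -0.91. Without 1 library the calls of HOXA4 and HOXC10 in PD-L1 high cells were lost, at adjusted p up to 0.0575 and 0.174. Those of HOXA4, HOXA7, HOXB5 and HOXC8 in PD-L1 low cells were lost too, at up to 0.196, 0.137, 0.0707 and 0.085.

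The derivation of H69M and the PD-L1 sort both set MHC class I high cells against low ones, without a library in common, and the difference of their fold changes was tested in the same model. It passed the threshold for 25 of 34 members, 10 higher and 15 lower in the sort than in the derivation, where 71.4% of all tested genes passed, 35.3% higher and 36.1% lower. HOXB9 had the largest difference, -4.25 ± 0.10 on the log2 scale (adjusted p = 9.31e-18), since it was higher in H69M than in H69 and lower in PD-L1 high than in PD-L1 low cells. HOXB6 differed by -3.01 ± 0.11 and HOXB8 by -2.24 ± 0.15 in the same way. HOXC13 differed by -3.39 ± 0.41 and HOXC11 by -1.81 ± 0.31, but rose in both. The differences of HOXA9 and HOXD3 lost their call without 1 library, at adjusted p up to 0.0807 and 0.0576.

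**Figure D4:**
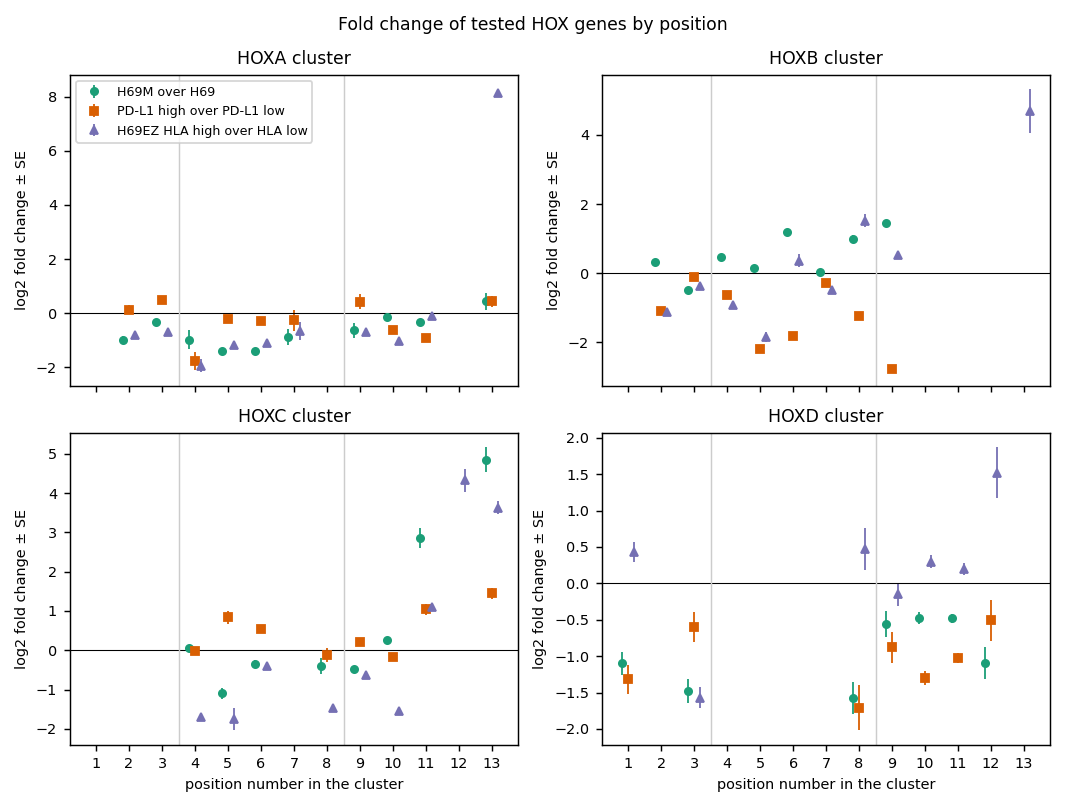
Log2 fold change ± SE (vertical axis, scaled per panel) of each tested member against its position number, in 1 panel per cluster, for H69M over H69, PD-L1 high over PD-L1 low, and H69EZ HLA high over HLA low. Grey lines part anterior, central and posterior positions. Rises of over 4 on the log2 scale are seen only at positions 12 and 13, and the HOXD points lie below 0 in the first 2 comparisons. The members with such rises entered the test through the cells where they are higher, so their position lends no support.

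Over these 3 human comparisons, 19 of 34 members tested in both tables were called in every one, against 52.1% of the 13618 genes tested in both. HOXC11 and HOXC13 were higher in all 3, as were 15.5% of all genes. In H69M over H69 both entered the test through the H69M populations, where they are higher. HOXA4, HOXA5, HOXA10 and HOXD3 were lower in all 3, as were 11.1% of all genes, and the remaining 13 did not keep one direction. These shares of all genes are near those of the members or above them. Leaving out 1 library ended the call of HOXA4 in H69M (adjusted p up to 0.0667) and those of HOXA5 (up to 0.136) and HOXD3 (up to 0.0802) in the PD-L1 sort. DESeq2's test did not call HOXA5 in the PD-L1 sort (adjusted p = 0.103), and HOXA10 was not called in H69M with no filter on low counts (-0.12, adjusted p = 0.0772). HOXC13 averaged 2.44 CPM in H69M, 6.73 CPM in PD-L1 high and 8.3 CPM in HLA high cells. The D cluster was lower in H69M and in PD-L1 high cells, with medians of -1.09 and -1.03, but had a median of 0.30 in HLA high cells.

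In the mouse lines the Hoxa and Hoxb genes moved in opposite directions. RPP used the Hoxb cluster alone, with 8 of 39 members at 1 CPM or more, whereas RPP-A used 17, the same number of Hoxb genes and 9 Hoxa genes. The Hoxa genes from Hoxa2 to Hoxa10 were on in RPP-A and close to 0 in RPP, and Hoxb2 to Hoxb9 were lower in RPP-A. Of 17 tested members 9 were higher and 8 lower, where 78.2% of all tested genes were called, 37.6% higher and 40.6% lower. The 9 Hoxa genes passed the filter on low counts through RPP-A only, so their count is a description of what RPP-A holds. The other 22 members were not tested. Hoxa11 and Hoxa13 had no count, the Hoxc members reached at most 0.229 CPM in any library, Hoxb1 at most 0.163 CPM and Hoxb13 at most 0.897 CPM. Among the Hoxd members Hoxd8 had 0.609, 0.402 and 0.499 CPM in RPP-A, from 24 reads, and none in RPP, and the others reached at most 0.125 CPM. Hoxd8 was thus at least 6.79-fold higher against a floor of 3 reads over RPP.

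Hoxa3 had 35.6, 36.4 and 28.1 CPM in RPP-A against 1.55, 0 and 0.141 CPM in RPP, a log2 fold change of 5.98 ± 0.63 (adjusted p = 6.17e-05). Hoxa5 had 20.7, 22.5 and 27.4 CPM in RPP-A against 1.63, 0.138 and 0.0703 CPM in RPP, a change of 5.35 ± 0.61 (adjusted p = 9.6e-05). Hoxa2 and Hoxa4 changed by 5.57 ± 0.63 and 5.71 ± 0.37, and Hoxa10, the last active gene of the row, by 4.71 ± 0.61. Hoxa6 had no read in RPP and was at least 37.1-fold higher in RPP-A, from 131 reads. Hoxa7 had 95 reads in RPP-A and 2 in RPP, a ratio of 40.3 with a 95% interval of 10.9 to 338. Hoxa9 changed by 5.35 ± 0.65 (adjusted p = 0.000128).

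The few Hoxa reads of RPP came mainly from 1 library. All Hoxa members together had 1562, 1880 and 1717 reads in RPP-A against 73 in the RPP library EHK_RPP4 and 4 and 7 in the other 2 RPP libraries. EHK_RPP4 also held 551 CPM of fibroblast and stromal markers, against 134 and 141 CPM in the other RPP libraries, and 261 CPM of non-neuroendocrine markers, against 81.2 and 84.8 CPM. Without it the ratios of RPP-A to RPP were larger but rested on 1 to 3 RPP reads a gene. On summed reads the CPM ratio was then 478 for Hoxa3 (95% exact binomial interval 132 to 3950), 225 for Hoxa5 (76.9 to 1090) and 114 for Hoxa10 (31.5 to 949). Hoxa7 and Hoxa9 had no read in the other 2 RPP libraries and were at least 18.8-fold and 41.6-fold higher in RPP-A against a floor of 3 reads over them. Leaving out the RPP library RPP1 gave log2 fold changes of 5.38 for Hoxa3, 4.97 for Hoxa2 and 4.12 for Hoxa10. The RPP-A library RPPM3 stood apart from RPPM1 and RPPM2 over all genes (chi-square over its degrees of freedom 34.3 and 37.2), while RPPM1 and RPPM2 differed by only 1.33. Counting RPPM1 and RPPM2 as 1 library, or leaving out both EHK_RPP4 and RPPM3, left all 8 Hoxb members called lower.

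The Hoxb genes fell by unequal amounts. Hoxb6 had 16.1, 17.4 and 20 CPM in RPP-A against 123, 132 and 129 CPM in RPP and fell by 2.84 ± 0.11 on the log2 scale (adjusted p = 3.49e-07). Hoxb5 had 23, 23.9 and 22 CPM in RPP-A against 95.2, 194 and 186 CPM in RPP and fell by 2.78 ± 0.27 (adjusted p = 3.4e-05). Hoxb2, Hoxb4, Hoxb7 and Hoxb8 fell by 1.75 to 2.15. Hoxb9 and Hoxb3 moved least. Hoxb9 had 150, 162 and 179 CPM in RPP-A against 283, 257 and 246 CPM in RPP, a change of -0.68 ± 0.11 (adjusted p = 0.000683), and Hoxb3 changed by -0.77 ± 0.12. The groups lay apart for all 17 tested members, as for 82.3% of all genes. Summed over the cluster, Hoxb stood at 409 ± 34.3 CPM in RPP-A and 1260 ± 133 CPM in RPP, and Hoxa at 107 ± 1 CPM in RPP-A and 2.24 ± 3.22 CPM in RPP. Hoxa genes thus made up 20.8% ± 1.29 of Hox counts in RPP-A and 0.197% ± 0.291 in RPP. Scaling by library totals moved the median of all mouse genes by over 0.1, to -0.40 in place of -0.04, and the share of rises among called genes to 35.2% in place of 48.1%. All 8 Hoxb members were called lower under it too.

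**Figure D5:**
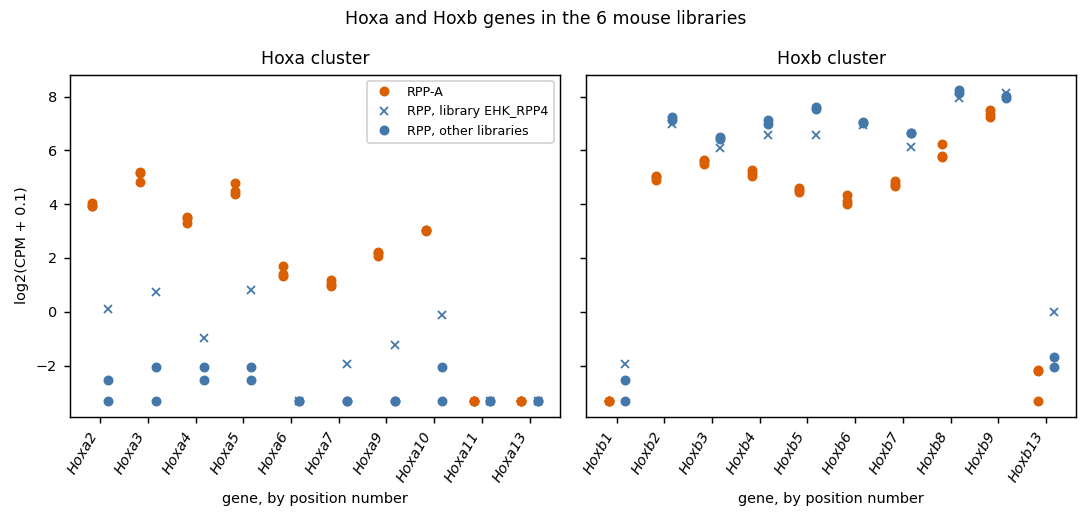
Level of the Hoxa (left panel) and Hoxb (right panel) genes in each mouse library, as log2(CPM + 0.1), with RPP-A left of RPP at each gene and crosses for the RPP library EHK_RPP4. Hoxa2 to Hoxa10 lie above all RPP values in RPP-A, Hoxa11 and Hoxa13 are at 0 in all libraries, and Hoxb2 to Hoxb9 lie below RPP.

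Genes that write, erase or work with HOX regulation were followed in lists that were chosen with earlier results known. EZH2 was lower on the MHC class I high side of all 3 human comparisons and of the mouse one. It stood at 239 ± 10.9 CPM in H69M and 302 ± 7.62 CPM in H69 (-0.34 ± 0.05), at 217 ± 0.293 CPM in PD-L1 high and 313 ± 6.59 CPM in PD-L1 low cells (-0.53 ± 0.05), and at 246 ± 7.72 CPM in HLA high and 360 ± 2.65 CPM in HLA low cells (-0.55 ± 0.06). Mouse Ezh2 stood at 97.4 ± 3.16 CPM in RPP-A and 192 ± 3.68 CPM in RPP (-0.98 ± 0.08, adjusted p = 1.6e-05). The other core subunits did not move as one. EED was lower in H69M (-0.47 ± 0.06) and higher in HLA high cells (0.66 ± 0.07), and SUZ12 was higher in H69M (0.28 ± 0.06), without a call in HLA high cells (-0.09 ± 0.06, adjusted p = 0.172), while mouse Suz12 fell by 1.09 ± 0.12. Of 12 tested PRC2 genes 1 was higher and 7 lower in HLA high cells, and 2 higher and 8 lower in RPP-A. In H69M 5 PRC2 genes were higher and 5 lower, and in PD-L1 high cells 3 and 5. KDM6B, an H3K27 demethylase, fell by 1.71 ± 0.08 in HLA high cells, by 1.02 ± 0.08 in PD-L1 high cells and by 0.23 ± 0.08 in H69M, on the log2 scale. Mouse Kdm6b stood at 137 ± 2.56 CPM in RPP-A and 137 ± 83.1 CPM in RPP (0.00 ± 0.36, adjusted p = 0.999). KMT2A fell by 0.40 ± 0.06 in HLA high and by 0.57 ± 0.08 in PD-L1 high cells, but was not called in H69M (-0.13 ± 0.07, adjusted p = 0.128). Mouse Kmt2a changed by -2.00 ± 0.27 in RPP-A (adjusted p = 0.00024). Of 15 trithorax genes, 10 were lower in HLA high cells and 2 higher. In H69M 0 trithorax genes were higher and 10 lower, in PD-L1 high cells 6 and 6, and in RPP-A 1 and 8. Of the PRC1 subunits, CBX2 was lower in HLA high cells (-0.78 ± 0.07) and in RPP-A (-2.31 ± 0.10), and 13 of 19 subunits were lower in HLA high cells, 4 higher. In H69M 7 PRC1 subunits were higher and 6 lower, in PD-L1 high cells 6 and 8, and in RPP-A 5 and 7. Beside these counts, 35.9% of all tested genes were called higher and 36.6% lower in H69M, and 39% and 39.4% in PD-L1 high cells. The shares were 41.1% and 40.2% in HLA high cells and 37.6% and 40.6% in RPP-A.

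The TALE proteins bind DNA together with HOX proteins. MEIS2 was higher in HLA high (0.98 ± 0.07) and PD-L1 high cells (1.02 ± 0.05) but lower in H69M (-1.87 ± 0.05). Mouse Meis2 was not called (-0.12 ± 0.29, adjusted p = 0.715). Mouse Meis1 rose by 2.93 ± 0.10, to 66 ± 4.3 CPM in RPP-A against 8.66 ± 0.309 CPM in RPP, while human MEIS1 was lower in H69M (-0.23 ± 0.07). Of 11 tested TALE genes 6 were higher and 4 lower in H69M, and 6 and 4 in PD-L1 high cells. In HLA high cells 4 were higher and 3 lower, and in RPP-A 6 and 3. Other developmental factor genes known as PRC2 targets also split. In HLA high cells 28 of 80 tested were higher and 43 lower, with a median of -0.80, and in RPP-A 32 of 61 were higher and 25 lower, with a median of 0.80. In H69M 33 of 67 were higher and 26 lower, with a median of 0.17. In PD-L1 high cells 21 of 67 were higher and 37 lower, with a median of -0.36. The medians over all tested genes were 0 in HLA high cells, -0.04 in RPP-A, -0.01 in H69M and 0 in PD-L1 high cells. Of all tested genes, 41.1% were called higher and 40.2% lower in HLA high cells, and 37.6% and 40.6% in RPP-A. The shares were 35.9% and 36.6% in H69M and 39% and 39.4% in PD-L1 high cells.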

How the data were processed

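The authors deposited 3 tables of whole-number read counts per gene: H69, H69M and its fractions in the first, H69EZ in another and both mouse lines in the last. Libraries came from 250 ng of RNA by exome capture, per the labels' protocols, and STAR 2.6.1 with builds hg19 and mm10 is named per the submitters' processing notes. The sources used here name no read counter or annotation and do not say whether strand was used. In GENCODE v29, 25 of the 39 human members share exon bases with another gene.

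Each table was fitted in R 4.3.3 with edgeR 4.0.16 (quasi-likelihood F-test, TMM, filterByExpr with a minimum count of 10, 1 coefficient per group, two-sided), and p-values were adjusted over all 15445, 14819 or 14032 genes tested. The SE is the log2 fold change over the square root of F. Members tested were 34, 36 and 17 of 39. Mouse columns were assigned by group, and columns named RPPM were read as RPP-A. Members are described library by library where called and at 1 CPM or more in a group, up to the 6 largest rises and 6 largest falls of a comparison, and the others by counts, ranges or short values. Members that did not pass, and paralogues or neighbours set beside them, were named for contrast after their values were seen. The members, lists and this rule were chosen with earlier results of these data known. Floors are 3 counts summed over a group. They and the intervals reflect counting error alone. Levels per kilobase use GENCODE v29 coding lengths. Scripts were tested on simulated counts. Alternatives were DESeq2 1.42.0 (test and size factors), library totals, other filters, the replicate block, only the 2 groups compared and each library left out. Those for RPPM1, RPPM2, RPPM3 and EHK_RPP4 together were added after the data were seen. Figures were drawn with matplotlib 3.10.9. Some genes, members and cofactors among them, are counted in the totals but not reported here by name or drawn.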

Additional observations from a re-analysis of the deposited data

Results flagged for a closer look

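The effect of the PD-L1 sort and that of H69M over H69 had opposite signs, both called, for the 9 HOX genes given here, and the difference between the 2 effects passed edgeR's test for each. The same was so for 25.5% of the 15445 genes tested in that table. On the log2 scale HOXB9 differed by -4.25 ± 0.10, being -2.79 in the sort and 1.45 in H69M over H69 (adjusted p = 9.31e-18). HOXB6 differed by -3.01 ± 0.11 (adjusted p = 6.11e-15), HOXB5 by -2.36 ± 0.10 (adjusted p = 4.54e-14) and HOXB8 by -2.24 ± 0.15 (adjusted p = 6.06e-11). HOXB2 differed by -1.43 ± 0.07 and HOXB4 by -1.12 ± 0.08. The opposite way round, higher in the sort and lower in H69M, HOXC5 differed by 1.94 ± 0.22, HOXC6 by 0.87 ± 0.13 and HOXA3 by 0.81 ± 0.08.

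The HLA sort of H69EZ and the PD-L1 sort of H69M also had opposite signs, both called, for 9 HOX genes, with every library of each high fraction on its own side of the low fraction. The same was so for 13.1% of the 13618 genes tested in both tables. These lie in separate tables, and the difference was not tested. HOXB8 changed by 1.52 in HLA high cells and by -1.25 in PD-L1 high cells, HOXB9 by 0.53 and -2.79, and HOXB6 by 0.36 and -1.81. HOXD1 changed by 0.43 in HLA high cells and by -1.32 in PD-L1 high cells, HOXD10 by 0.30 and -1.30, and HOXD11 by 0.20 and -1.03. The value of HOXD1 is uncertain, since it shares exon bases with HAGLR, which is counted in the H69M table but not in the H69EZ table. HOXC5 changed by -1.76 in HLA high cells and by 0.84 in PD-L1 high cells, HOXA3 by -0.71 and 0.50, and HOXC6 by -0.41 and 0.53. In the HLA sort the calls of HOXB6, HOXD1, HOXD10 and HOXD11 were lost without 1 library (adjusted p up to 0.26, 0.0707, 0.0729 and 0.191), and under library totals those of HOXB6, HOXD10 and HOXD11 (adjusted p = 0.257, 0.11 and 0.582). DESeq2's test did not call HOXB6 there (adjusted p = 0.193).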

How the results depend on the processing

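Over 223 member comparisons, 2917 alternative values were computed. Of these 2813 kept direction and call, 72 lost the call, 32 gained one and 0 changed direction. Calls changed in 34 comparisons, and the cause was not tested. With a minimum count of 100 the number of higher mouse members was 5 in place of 9, as fewer genes were tested. At a threshold of 5 CPM in place of 1, 18 members were counted in HLA high cells of H69EZ in place of 30. Over all alternatives 7 to 10 members were higher and 15 to 22 lower in H69M over H69, 5 to 7 higher and 17 to 21 lower in the PD-L1 sort, and 8 to 12 higher and 19 to 22 lower in the HLA sort. Library totals without TMM moved the median of all genes by -0.14 in the PD-L1 sort and -0.15 in the HLA sort.

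Same-numbered libraries had correlations of -0.16 to 0.09, which gave no sign of pairing by replicate number. With so few libraries a group, these correlations cannot exclude pairing. With the replicate block, 9 members were higher and 19 lower in H69M over H69, 5 and 18 in the PD-L1 sort, and 11 and 20 in the HLA sort, with 10915, 11923 and 12031 genes of all called. Against H69, 12 members were higher and 16 lower in PD-L1 low and 5 and 24 in PD-L1 high cells. No paired analysis was possible for the mouse lines because each column could be tied to a group but not to a numbered replicate of the labels. Members under about 10 reads per library could not be tested.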

Other observations

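Retinoic acid is a textbook activator of HOX clusters, and genes of its pathway also differed. RARG, a retinoic acid receptor, was higher on the MHC class I high side each time. It stood at 12.4 ± 0.496 CPM in H69M and 1.54 ± 0.292 CPM in H69 (log2 fold change 3.03 ± 0.13), at 44 ± 1.83 CPM in PD-L1 high and 4.13 ± 0.437 CPM in PD-L1 low cells (3.43 ± 0.10), and at 52.5 ± 4.36 CPM in HLA high and 8.07 ± 0.536 CPM in HLA low cells (2.71 ± 0.09). Mouse Rarg stood at 307 ± 27.9 CPM in RPP-A and 13.2 ± 4.96 CPM in RPP (4.55 ± 0.26, adjusted p = 2.13e-06). RXRG, a retinoid X receptor, was lower in H69M (-4.96 ± 0.13), PD-L1 high (-4.44 ± 0.37) and HLA high cells (-3.92 ± 0.25). CRABP2, which carries retinoic acid inside cells, rose by 4.68 ± 0.11 in H69M, 2.51 ± 0.08 in PD-L1 high and 1.02 ± 0.07 in HLA high cells. Mouse Crabp2 was not called (-0.55 ± 0.45, adjusted p = 0.295). Of 15 tested genes of the list 6 were higher and 7 lower in H69M, 8 and 4 in PD-L1 high, 8 and 3 in HLA high cells, and 9 and 2 in RPP-A. The shares of all tested genes called higher and lower were 35.9% and 36.6% in H69M and 39% and 39.4% in PD-L1 high cells. They were 41.1% and 40.2% in HLA high cells and 37.6% and 40.6% in RPP-A.

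Among the ParaHox and CDX genes, relatives of the HOX genes that were listed together with EVX1 and EVX2, 1 was tested in each table. The directions differed. In the H69EZ table the gene was EVX1, called higher in HLA high cells (log2 fold change 6.13), with the limit given above. PDX1 had no count in H69M and 4.77 ± 0.766 CPM in H69, and Cdx2 had no count in RPP-A and 5.23 ± 0.658 CPM in RPP.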
